A study of Mus musculus with 74 samples.

Results

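The 8 genes described here encode 5 nuclear receptors for retinoids (Rara, Rarb, Rarg, Rxra and Rxrb), 2 cellular retinoic acid binding proteins (Crabp1 and Crabp2) and Stra6, a membrane receptor that takes up retinol. They were chosen by name as members of 1 pathway, and all 8 were among the 30323 genes of the count table. The cells were 74 single cells of the pro-epicardial organ, the mesothelial outgrowth beside the sinus venosus that gives rise to the epicardium. They came from C57BL/6 mouse embryos at embryonic day 9.5. The embryos carried Tbx18Cre, a recombinase driven from the Tbx18 locus, and mTmG, a membrane reporter that changes colour after recombination. The sort therefore kept descendants of Tbx18-expressing cells, and the series held no untreated, mutant or control group. Embryo, litter and batch are not in the labels, which makes the 74 cells 1 sample without replicates. Cells were therefore described and not tested, p-values are absent, and every spread is a standard deviation (SD) over cells.

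Retinoic acid is made from retinol, which circulates bound to a carrier protein and enters cells through Stra6 or by diffusion. Retinol dehydrogenases such as Rdh10 and retinaldehyde dehydrogenases of the Aldh1a family carry out the oxidation, and Cyp26 enzymes degrade the product. Retinoic acid binds the retinoic acid receptors (RAR), which sit on DNA as heterodimers with retinoid X receptors (RXR) and recruit corepressors without ligand and coactivators with it. Crabp2 is known for carrying retinoic acid to the receptors, and Crabp1 for holding it in the cytoplasm. Rarb is itself a classical target gene, since its promoter holds a retinoic acid response element. In the embryo the epicardium and the inflow of the heart are known sites of retinoic acid synthesis through Aldh1a2.

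The response element of Rarb is a direct repeat of a hexamer with 5 bases between the copies, and the stretch is printed because Rarb served below as the read-out for ligand. Promoter windows from RefSeq (build GRCm38.p6, 250 bases before to 50 bases after each start) were searched on both strands for the half-site AGGTCA and its variants AGTTCA, then GGGTCA as well as the form GGTTCA, repeated in the same direction 5 bases apart. Of 32851 windows, 32 held such a repeat (0.0974%). Windows were found for 7 of the 8 genes, and Rarb was the gene among the 7 with a match. Of 42 genes of the members and the pathway lists with a window, the other match was in Cyp26a1, the retinoic acid degrading enzyme that is also a classical target. Each stretch is printed 5′ to 3′ on the strand of the match with both half-sites in capitals. The Rarb stretch is chr14:16575507-16575535 (minus strand, the strand of the gene). The Cyp26a1 stretch is chr19:37697770-37697798 (minus strand, opposite to the gene). Annotated untranslated exon sequence overlaps both.
Rarb: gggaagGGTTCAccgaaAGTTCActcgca
Cyp26a1: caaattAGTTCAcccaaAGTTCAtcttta
The Rarb repeat lay 53 to 37 bases upstream of the annotated start and the Cyp26a1 repeat 32 to 16 bases upstream. From half-site to half-site the repeats were identical at 15 of 17 positions. Counted from 1 at the 5′ end of the repeat, the differences from Rarb to Cyp26a1 were G1A and G9C. A match of letters is a description and not a measured binding site. The same half-sites with a spacer of 2 bases, found in 0.268% of windows, or of 1 base, found in 0.222%, had no match in the windows of the 7 genes.

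A cell's library held a median of 849718 estimated counts (range 216177 to 2618538), and 0 pairs of cells were identical. Levels are in CPM, the count scaled to a total of 1000000 per cell, and a gene counted as detected from 5 counts upward. Intervals are exact 95% binomial (Clopper-Pearson) intervals that cover the counting of cells only, and reads without molecular identifiers are not independent molecules. The labelled cell type was checked against its markers. Tbx18, the driver of the reporter, was detected in 69 cells, the mesothelial factor Wt1 in 60 and the epicardial factor Tcf21 in 63. Endothelial Cdh5, Tie1 and Emcn and the neural crest genes Foxd3, Tfap2a, Tfap2b, Ngfr and Ret were each found in 0 of 74 cells. For such a count of 0 the limit is set at 3 cells, here 4.05%. Cells were divided into 3 states by 2 genes. The 23 Actc1-high cells had at least 500 CPM of Actc1, the cardiac actin, with a median of 3309 CPM, and 9 of 11 cardiomyocyte markers other than Actc1 were detected in at least 50% of them. The other 51 cells comprised 32 Lhx9-positive cells, with 5 or more counts of the mesothelial LIM-homeobox factor Lhx9, and 19 Lhx9-negative cells. The highest Lhx9 count below the threshold was 2 and the lowest above it 15. For Actc1 the nearest values were 420 and 530 CPM, and 7 cells lay between 250 and 1000 CPM. Median totals were 810674 counts in Lhx9-positive, 1088057 in Lhx9-negative and 826085 in Actc1-high cells.

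At full depth the 8 genes fell into a broad, an intermediate and a sparse set by the share of cells in which they were detected. Rxrb was detected in 68 of 74 cells (91.9%, interval 83.2% to 97.0%), Crabp2 in 67 (90.5%, 81.5% to 96.1%) and Rara in 56 (75.7%, 64.3% to 84.9%). Rarb was detected in 37 cells (50.0%, 38.1% to 61.9%), Rxra in 32 (43.2%, 31.8% to 55.3%) and Crabp1 in 21 (28.4%, 18.5% to 40.1%). Rarg was detected in 5 cells (6.76%, 2.23% to 15.1%) and Stra6 in 3 (4.05%, 0.844% to 11.4%). The intervals of neighbours in this order overlapped except between Rara and Rarb and between Crabp1 and Rarg. Detection of Rara, Rxra and Rarg moved with depth. After each cell was thinned to 354002 counts, which left 66 cells, Rara was detected in 54.5%, Rxra in 28.8% and Rarg in 1.52%. Rarb stood at 51.5% after thinning, with an interval (38.9% to 64.0%) that overlapped that of Rara (41.8% to 66.9%). Rxrb and Crabp2 stood at 89.4%, Crabp1 at 21.2% and Stra6 at 4.55%.

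**Figure D1:**
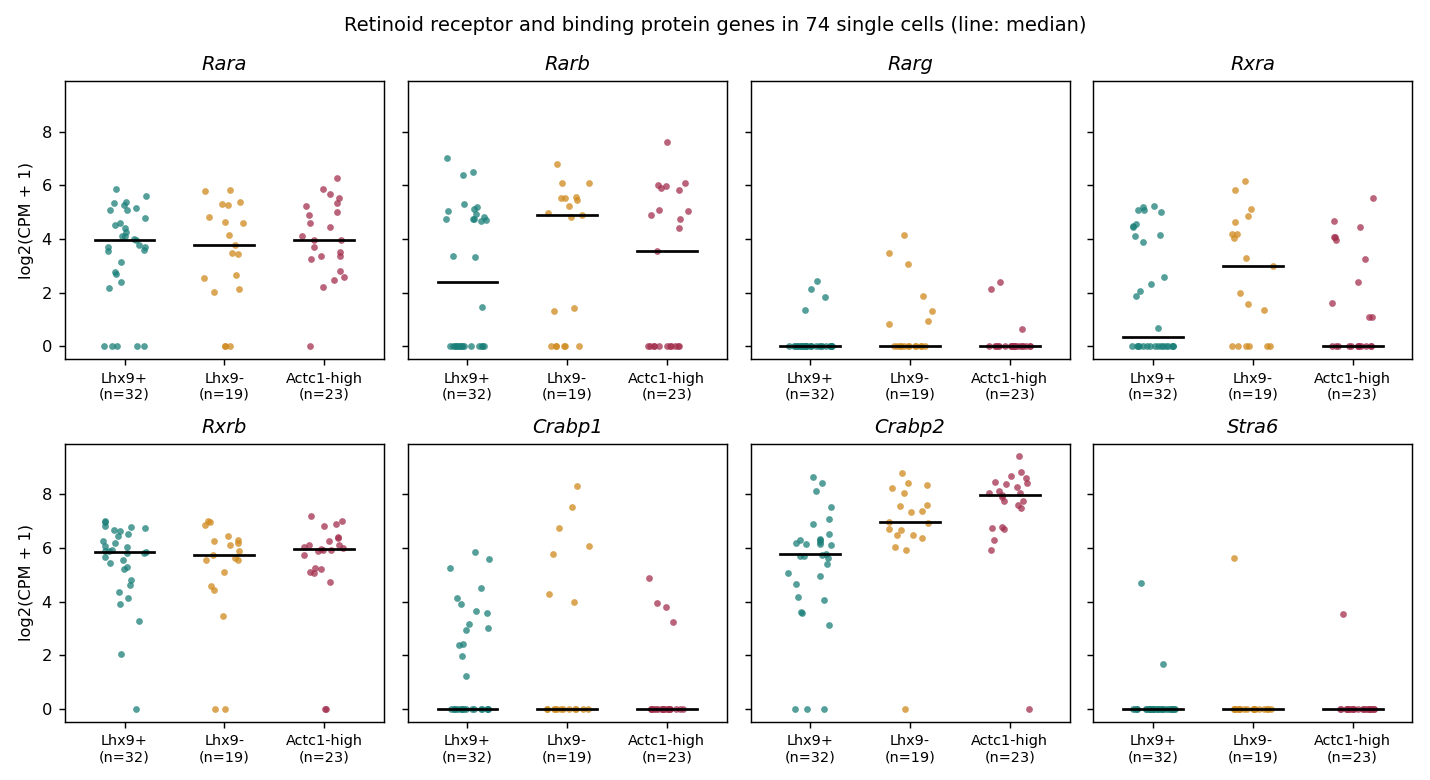
Level of each of the 8 genes in each of 74 cells, as log2(CPM + 1), by state: 32 Lhx9-positive, 19 Lhx9-negative and 23 Actc1-high cells. Points are cells and lines are medians. Crabp2 stands highest in Actc1-high cells and Crabp1 reaches its highest levels in Lhx9-negative cells, while Rarg and Stra6 are at 0 in most cells.

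At full depth the retinoic acid receptors were led by Rara in the number of cells, and by Rarb in level per length. After thinning, Rara and Rarb were detected in like shares of cells (54.5% and 51.5%). Rara (chromosome 11, 98927818 to 98974942, plus strand, GRCm38) ranged from 0 to 76.6 CPM over the 74 cells with a median of 14.6. Its medians in Lhx9-positive, Lhx9-negative and Actc1-high cells were 14.7, 12.7 and 14.7 CPM, and the 3 ranges overlapped almost whole. Rarb (chromosome 14, 16430839 to 16819156, minus strand) ranged from 0 to 194 CPM with a median of 10.1, with few cells between those at 0 and those with a clear signal. Cells in which Rarb was detected had a median of 35.1 CPM, above the 21.3 CPM of Rara in the cells in which that gene was detected. Rarb was highest in 1 Actc1-high cell (194 CPM), while the highest Lhx9-positive cell had 129 CPM and the highest Lhx9-negative cell 110 CPM.

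The Rarb values carry an uncertainty of annotation. The 3′ end of Rarb overlaps Top2b, a topoisomerase gene on the opposite strand, over 1793 bases of exon, and the longest Rarb transcript is 3108 bases long. The labels state nothing on strand, so reads from the overlap may come from either gene. Top2b was detected in all 74 cells at a mean of 110 CPM. In the 37 cells with Rarb detected it stood at 118 ± 51.8 CPM (range 22.7 to 296), and in the 37 below 5 counts of Rarb at 102 ± 42.95 CPM (33.4 to 195). The rank correlation (Spearman) of the 2 genes over the 74 cells was 0.27. The share of Rarb counts that came from the overlap was not tested.

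Rarg (chromosome 15, 102234938 to 102257517, minus strand) was the sparse receptor. It was detected in 3 Lhx9-negative, 2 Actc1-high and 0 of 32 Lhx9-positive cells (3-cell limit 9.38%), with a maximum of 16.7 CPM in a Lhx9-negative cell. Its level moved with depth more than that of the other members, with a Spearman correlation of 0.21 with the total count and 0.31 with the number of genes detected over the 74 cells, so its order between states was not read.

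To compare receptors with each other, CPM were divided by gene length, the median length of the annotated coding transcripts (3129 bases for Rara, 1732 for Rarb and 934 for Rarg). Mean levels per length were 14.4 ± 20.1 CPM per kilobase for Rarb, 6.33 ± 5.57 for Rara and 0.874 ± 2.72 for Rarg. Rarb thus held 66.6% of the summed mean RAR level, Rara 29.3% and Rarg 4.05%. The lead of Rarb over Rara depended on the length used. With the length of all exons joined, Rarb held 50.0% and Rara 47.98%, and with the longest transcript 56.7% and 41.4%. At least 1 RAR gene was detected in 66 cells. Rarb was the highest of the 3 per length in 37 of the 66 cells (56.1%, interval 43.3% to 68.3%), Rara in 26 (39.4%, 27.6% to 52.2%) and Rarg in 3. This share of cells led by Rarb also depended on the length used. It was 48.5% with all exons joined, and 50.0% with the longest transcript or without a length correction.

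Single cells often held 1 RAR gene and not the other. Rara and Rarb were detected together in 28 cells, Rara without Rarb in 28, Rarb without Rara in 9 and neither in 9. At least 2 RAR genes were detected in 31 of 74 cells (41.9%, interval 30.5% to 53.9%). This share was 11 of 19 in Lhx9-negative, 11 of 32 in Lhx9-positive and 9 of 23 in Actc1-high cells. The highest RAR gene was Rarb in 11 of 17 Lhx9-negative cells with any RAR, Rara in 3 and Rarg in 3. In Actc1-high cells Rara and Rarb led in 11 cells each of 22, and in Lhx9-positive cells Rarb led in 15 of 27 and Rara in 12. Their intervals overlapped between states.

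**Figure D2:**
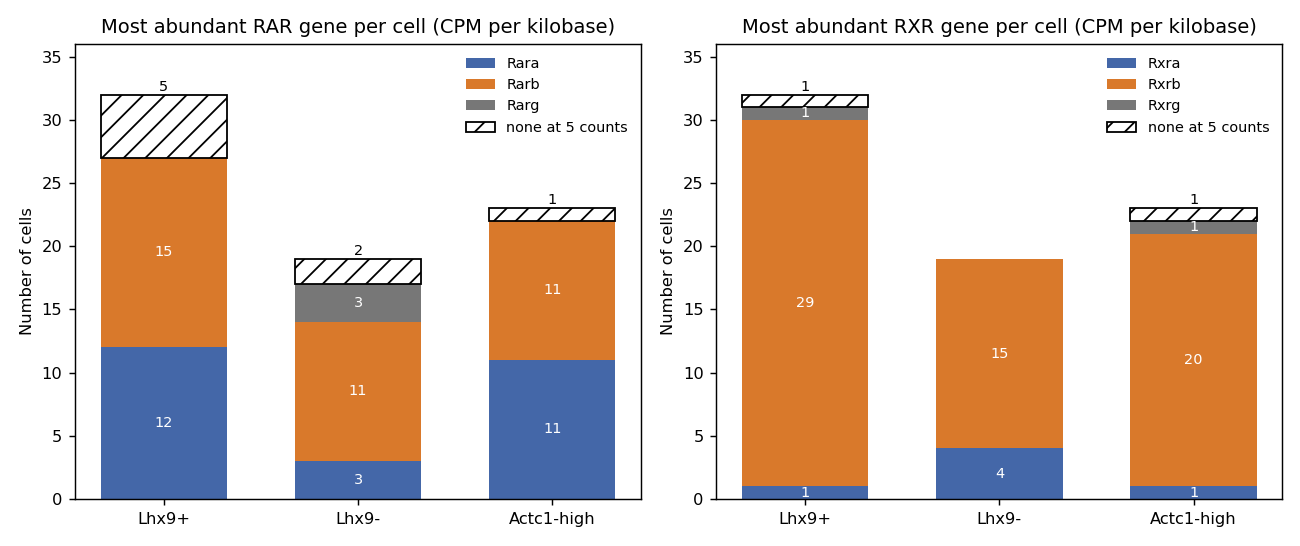
Number of cells in which each RAR gene (left) or RXR gene (right) was the most abundant of its family by CPM per kilobase, in 3 cell states. Length is the median of the coding transcripts, and the order of Rarb and Rara depends on it. Hatched bars are cells with no gene of the family at 5 counts. Rarb leads in 15, 11 and 11 cells and Rara in 12, 3 and 11, and Rxrb leads among RXR genes in 29, 15 and 20 cells.

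Among the retinoid X receptors, the obligate partners of the RAR proteins, Rxrb predominated. Rxrb (chromosome 17, 34031812 to 34038399, plus strand) ranged from 0 to 146 CPM with a median of 58.3. Its medians were 57.1 CPM in Lhx9-positive, 52.3 in Lhx9-negative and 60.6 in Actc1-high cells, and the states overlapped throughout. Rxra (chromosome 2, 27676440 to 27762957, plus strand) ranged from 0 to 70.9 CPM with a median of 1.36. It was detected in 13 of 32 Lhx9-positive, 11 of 19 Lhx9-negative and 8 of 23 Actc1-high cells. The remaining family gene, Rxrg, was detected in 8 of 74 cells at 2.89 ± 9.85 CPM.

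Per length, Rxrb stood at 23.6 ± 14.4 CPM per kilobase, Rxra at 4.98 ± 7.46 and Rxrg at 1.57 ± 5.36. Rxrb held 78.3% of the summed mean RXR level, Rxra 16.5% and Rxrg 5.20%. Rxrb was the highest RXR gene in 64 of the 72 cells with any RXR detected (88.9%, interval 79.3% to 95.1%). A RAR gene and an RXR gene were detected together in 64 of 74 cells (86.5%, 76.5% to 93.3%). Both sides of the heterodimer were therefore seen in 26 of 32 Lhx9-positive, 17 of 19 Lhx9-negative and 21 of 23 Actc1-high cells.

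Stra6 (chromosome 9, 58063788 to 58153996, plus strand) was detected in 1 cell of each state. The 3 values were 24.6 CPM in the Lhx9-positive cell, 48.2 in the Lhx9-negative cell and 10.6 in the Actc1-high cell. Lrat, which esterifies retinol for storage, was likewise sparse and detected in 1 cell. Fabp5, a fatty acid binding protein that can also carry retinoic acid, was detected in all 74 cells at 406 ± 199 CPM.

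The binding protein genes were far apart in level. Crabp2 (chromosome 3, 87948666 to 87953376, plus strand) ranged from 0 to 679 CPM with a median of 104. Crabp1 (chromosome 9, 54764748 to 54773110, plus strand) ranged from 0 to 315 CPM with a median of 0. Per length, Crabp2 stood at 168 ± 150 CPM per kilobase and Crabp1 at 18.1 ± 55.7, so Crabp2 was the most abundant of the 8 genes. Of the 21 cells with Crabp1, 20 also held Crabp2. Crabp2 was detected without Crabp1 in 47 cells, and 6 cells held neither.

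Between the Lhx9 states, both binding protein genes were lower in Lhx9-positive cells. The 4 receptor genes that passed the filter given below differed by less than 2-fold. The 2-fold mark is a rule of size on mean CPM, with no test behind it. It covered the 11511 genes with 5 or more counts in at least 10% of cells, and 6 of the 8 members passed this filter (Rarg and Stra6 did not). Of the 6, 2 were lower by 2-fold or more in Lhx9-positive than in Lhx9-negative cells and 0 were higher. The background was 10.3% of all genes lower and 7% higher. The median log2 ratio of the 6 was -0.60, beside -0.06 for all genes that passed.

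Crabp2 ranged from 0 to 403 CPM with a median of 53.3 in the 32 Lhx9-positive cells, and from 0 to 436 CPM with a median of 123 in the 19 Lhx9-negative cells. Its means were 80.8 ± 95.5 and 168 ± 114 CPM, a log2 ratio of -1.06. The ranges overlapped fully, and the difference lay in the middle of the distribution. The ratio was just past the 2-fold mark, at -0.98 after thinning and -0.96 among cells below 100 CPM of Actc1. Crabp1 ranged from 0 to 56.7 CPM in Lhx9-positive cells and from 0 to 315 CPM in Lhx9-negative cells, with medians of 0 in both. It was detected at a like share, in 10 of 32 (31.3%, interval 16.1% to 50.0%) and 7 of 19 cells (36.8%, 16.3% to 61.6%). Where detected, its median was 15.3 CPM in Lhx9-positive and 65.8 CPM in Lhx9-negative cells. The means of 7.83 ± 14.2 and 39.9 ± 82.1 CPM gave a log2 ratio of -2.35, and -1.97 without the highest cell of each state. On the mean of log2(CPM + 1) the difference was -0.57 and no longer past 2-fold.

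The receptors stood closer together in these cells. Rarb had a mean of 20.1 ± 30.3 CPM in Lhx9-positive and 28.8 ± 30.7 CPM in Lhx9-negative cells (log2 ratio -0.52), with medians of 5.43 and 28.5 CPM. Rxra had means of 9.25 ± 12.9 and 14.9 ± 20.1 CPM (log2 ratio -0.69). Rara and Rxrb had log2 ratios of -0.08 and 0.05. All 4 differences were smaller than the SD over cells of either state.

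Markers of other mesenchyme moved with the Lhx9 state. The summed level of 12 epicardial and mesothelial markers had a median of 2971 CPM (range 724 to 4344) in Lhx9-positive and 706 CPM (273 to 2280) in Lhx9-negative cells. The sum of 7 septum transversum markers had medians of 181 CPM (45.9 to 1577) and 726 CPM (331 to 3421), with 3 of 7 markers and 7 of 7 markers detected in at least 50% of cells. Their part in the Crabp1 and Crabp2 differences was not tested. Crabp1 is also known from neural crest. The sum of 8 neural crest markers had a median of 1.21 CPM in the 21 cells with Crabp1 and 2.28 CPM in the 53 without it, and 6 of the 8 were detected in no cell.

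Across the Actc1 states, Crabp2 was higher and Crabp1 lower in the muscle-gene expressing cells. Of the 6 members that passed the filter, 1 was higher by 2-fold or more in the 23 Actc1-high cells than in the other 51 and 1 was lower. The background was 6.18% of genes higher and 7.69% lower, and the median log2 ratio was 0.20 for the 6 members and -0.07 for all genes that passed. Crabp2 ranged from 0 to 679 CPM with a median of 247 in Actc1-high cells and from 0 to 436 CPM with a median of 77.0 in the others. Its means were 252 ± 151 and 113 ± 110 CPM (log2 ratio 1.15), and it was detected in 22 of 23 Actc1-high cells. Set against the 19 Lhx9-negative cells alone, the log2 ratio was 0.58, under 2-fold. The Crabp2 levels therefore ran from Lhx9-positive through Lhx9-negative to Actc1-high cells, with overlap at each step.

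Crabp1 reached no more than 28.4 CPM in Actc1-high cells and was detected in 4 of 23 (17.4%, interval 4.95% to 38.8%). In the other 51 cells it reached 315 CPM and was detected in 17 (33.3%, 20.8% to 47.9%). The means were 2.81 ± 7.01 and 19.8 ± 52.9 CPM, a log2 ratio of -2.82, with medians of 0 in both. After thinning, Crabp1 was detected in 0 of 20 Actc1-high cells, with a 3-cell limit of 15.0%, and in 14 of 46 others. Rarb had log2 ratio 0.28 and changed sign in 4 of 7 alternatives, and without the highest cell of each state it was -0.03. Rara and Rxrb had log2 ratios of 0.29 and 0.12. Rxra was at 6.71 ± 11.4 CPM in Actc1-high and 11.4 ± 16.0 CPM in the other cells (log2 ratio -0.76), and it passed 2-fold in 4 of 7 alternatives. Summed over 11 genes without Actc1, cardiomyocyte markers had a median of 5887 CPM (range 1702 to 39225) in Actc1-high cells and 1000 CPM (182 to 4341) in the others. The 12 epicardial and mesothelial markers had medians of 563 CPM (205 to 4684) and 2132 CPM (273 to 4344), with 5 and 11 of the 12 detected in at least 50% of cells. The part of either list in these differences was not tested.

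**Figure D3:**
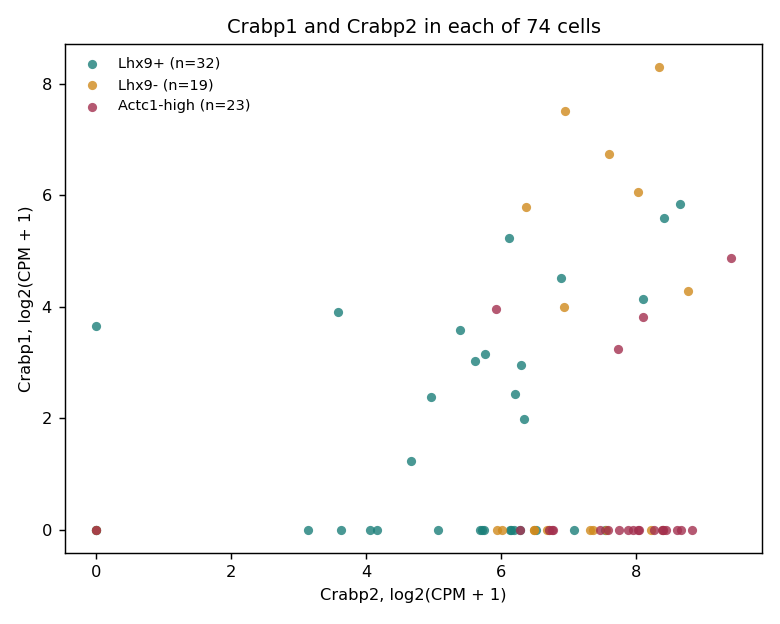
Crabp1 against Crabp2 in each of 74 cells, both as log2(CPM + 1), coloured by state. Cells with Crabp1 lie almost all among cells with Crabp2 (20 of 21), and most Actc1-high cells lie along the bottom, with Crabp2 and no Crabp1.

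Several other genes of retinoid supply differed by 2-fold or more between states. The 4 receptor genes that passed the filter did not. Most genes did not either: of all that passed, 17.3% differed so by Lhx9 state and 13.9% by Actc1 state. Between Lhx9 states, 6 of 10 enzyme genes passed the filter, 1 higher and 3 lower in Lhx9-positive cells (background 7% and 10.3%). Aldh1a1 was at 33.5 ± 48.4 CPM in Lhx9-positive and 1.04 ± 4.54 CPM in Lhx9-negative cells. Cyp1b1, a cytochrome P450 that can also oxidise retinol, was at 10.5 ± 26.7 and 106 ± 105 CPM. Aldh1a2, the main embryonic retinaldehyde dehydrogenase, was at 27.9 ± 63.1 and 61.4 ± 136 CPM, and Rdh10 at 4.14 ± 10.8 and 8.80 ± 13.2 CPM. For Aldh1a2 the log2 ratio of -1.14 was -0.91 without the highest cell of each state. In Actc1-high cells Aldh1a2, Aldh1a3 and Cyp1b1 were lower by 2-fold or more and 0 of the 6 were higher (background 7.69% and 6.18%).

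Among 8 other receptor and binding protein genes, 4 passed the filter. Rbp4, the retinol carrier of plasma, was detected in 9 of 32 Lhx9-positive, 0 of 19 Lhx9-negative and 2 of 23 Actc1-high cells. Of 16 retinoic acid responsive genes, a list that includes Rarb, Crabp2 and Stra6, 12 passed. In Lhx9-positive cells 1 was higher (Tgm2, a transglutaminase) and 6 were lower, namely Crabp2 and the homeobox genes Hoxb1, Hoxa2, Hoxb2, Hoxb4 and Hoxb5. Their median log2 ratio was -0.80, beside -0.06 for all genes, of which 7% were higher and 10.3% lower. In Actc1-high cells 1 was higher (Crabp2) and 5 were lower, among them Hoxb1, Hoxa2 and Hoxb5, with a median of -0.63 beside -0.07 for all genes (6.18% higher, 7.69% lower). Cyp26a1, which carries the same kind of repeat as Rarb in its promoter, was found in 0 of 74 cells (3-cell limit 4.05%). Cyp26b1 was detected in 0 and Cyp26c1 in 1 cell.

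Rarb, as a target gene, was set against the listed enzymes, a list of genes that make or clear retinoic acid. The Spearman correlation (rho) of log2(CPM + 1) over the 74 cells is a description, since the cells are 1 sample and many values are 0. The source of the zeros was not tested. The 6 enzymes that passed the filter gave rho of 0.20 for Rdh10, -0.20 for Rdh11, -0.13 for Aldh1a1, 0.00 for Aldh1a2, 0.10 for Aldh1a3 and 0.23 for Cyp1b1. None of the 6 reached 0.3 in size over all cells, and all lay between the 1st and 99th percentiles of 10402 genes (-0.30 and 0.30). In the 51 cells below 500 CPM of Actc1, Rdh11 stood at -0.34 and the other 5 stayed under 0.3.

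In counts of cells, Rarb was detected in 11 of 18 cells with Aldh1a2 (61.1%, interval 35.7% to 82.7%) and in 26 of 56 without it (46.4%, 33.0% to 60.3%). For Aldh1a1 it was 10 of 20 and 27 of 54 cells, 50.0% in both. For any Aldh1a gene it was 24 of 47 (51.1%, 36.1% to 65.9%) and 13 of 27 (48.1%, 28.7% to 68.1%). The intervals overlapped in each of these pairs. For Rdh11, in the 51 cells below 500 CPM of Actc1, Rarb was detected in 17 of 41 cells with the enzyme (41.5%, 26.3% to 57.9%) and in 9 of 10 without it (90.0%, 55.5% to 99.7%). In the 19 Lhx9-negative cells alone rho was -0.62 for Rdh11, 0.33 for Aldh1a3 and 0.33 for Cyp1b1. In the same order it was -0.11, -0.09 and -0.02 in Lhx9-positive cells. In Actc1-high cells it was 0.05, 0.28 and 0.30. Over the 19 Lhx9-negative cells 11.1% of all genes were at or below -0.3, and the share at the upper end was not counted. Among the other members, Rarb had rho of -0.29 with Rxrb, 0.06 with Crabp2, 0.05 with Rxra, 0.01 with Crabp1 and -0.07 with Rara. The corepressor gene Ncor1 had 0.38 and the orphan receptor Nr2f1, which competes for such elements, 0.31.

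**Figure D4:**
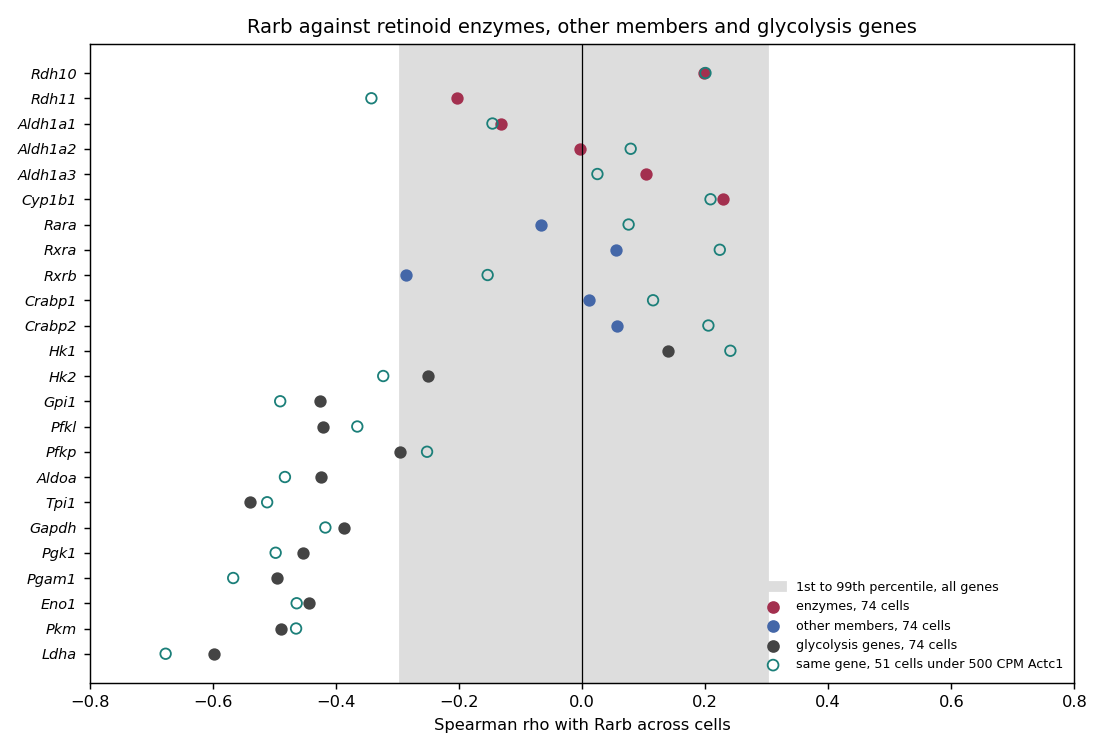
Spearman rho of Rarb with 6 retinoid enzyme genes, 5 other members and 13 glycolysis genes, over 74 cells (filled) and over the 51 cells below 500 CPM of Actc1 (open); the grey band spans the 1st to 99th percentile of 10402 genes in the 74 cells. The enzymes lie inside the band over 74 cells, and 10 of the 13 glycolysis genes lie at or below -0.3. The glycolysis list was chosen after values were seen and includes Ldha, Tpi1 and Pgam1, the lowest in the Rarb ranking.

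The genes whose pattern was most like that of each member were ranked by rho over 74 cells among genes detected in at least 20% of cells. For Rarb they were Znrd1 (0.43), Pnn (0.41) and Kif21b (0.41), for Rara Ppil2 (0.47), Lage3 (0.42) and Kmt2e (0.41), and for Rxra Zfp37 (0.45), Nav1 (0.44) and Slc25a44 (0.40). For Rxrb they were Idua (0.50), Hps5 (0.43) and Ppp1r15a (0.42), and for Crabp1 Sf3b4 (0.49), Pdxk (0.49) and Dnajc9 (0.49). These are the top values among 10402 genes and low in size. Crabp2 had the strongest likeness, with Sfrp1, a secreted Wnt antagonist (0.61), Cadm1, an adhesion molecule (0.60), and Eno3, the muscle enolase (0.60). At its other end was Dcn, the matrix proteoglycan decorin (-0.62).

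At the low end of the Rarb ranking stood genes of glycolysis, a pattern chosen after its values were seen. The 3 lowest of the 10402 genes were Ldha, lactate dehydrogenase (-0.60), Tpi1, triosephosphate isomerase (-0.54), and Pgam1, phosphoglycerate mutase (-0.50). Of 13 genes from hexokinase to lactate dehydrogenase, 12 had rho below 0 and 10 were at or below -0.3, with a median of -0.43. The 13 include Ldha, Tpi1 and Pgam1, so these counts and the median are not separate from the values that led to the list. Over all genes 0.942% were at or below -0.3 and the median was 0.01. The exception above 0 was Hk1 (0.14).

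Ldha ranged from 1367 to 7390 CPM with a median of 4728 in the 37 cells with Rarb detected, and from 1734 to 12261 CPM with a median of 6844 in the 37 below 5 counts. The means were 4526 ± 1715 and 6954 ± 2312 CPM, and the groups overlapped. Tpi1 was at 1672 ± 640 and 2416 ± 697 CPM, and Pgam1 at 1548 ± 450 and 1936 ± 387 CPM. The rank correlation of Rarb with Ldha was -0.61 in the 32 Lhx9-positive, -0.71 in the 19 Lhx9-negative and -0.52 in the 23 Actc1-high cells, so it was of like size within each state. After thinning it was -0.57 and with scran size factors -0.59. Rarb itself had rho of 0.02 with total count, and Ldha -0.19, and the median totals of cells with and without Rarb detected were 827290 and 871272 counts. The epicardial and mesothelial sum had a median of 890 CPM (range 234 to 4030) with Rarb detected and 1677 CPM (205 to 4684) without, with 8 and 11 of 12 markers in at least 50% of cells. The septum transversum sum had medians of 405 CPM (53.7 to 3421) and 332 CPM (45.9 to 1577). Their part in the relation was not tested.

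**Figure D5:**
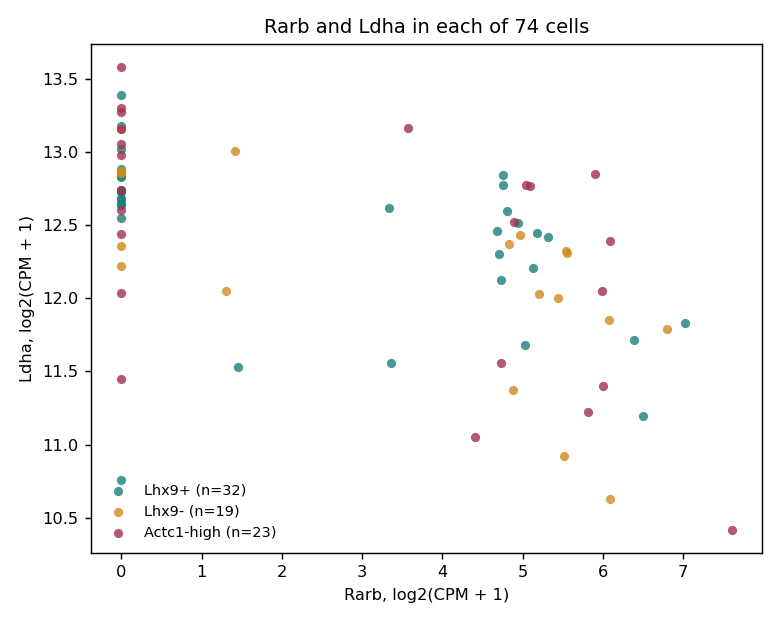
Ldha against Rarb in each of 74 cells, both as log2(CPM + 1), coloured by state. Cells without Rarb stand mostly at high Ldha, and cells with the highest Rarb stand lower, in all 3 states.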

How the data were processed

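Full-length amplified RNA (SMARTSeq V4, Nextera XT) of 74 sorted cells was sequenced, per the labels. The table deposited by the authors holds estimated counts per gene, unscaled. The submitters' processing notes name kallisto and the human build hg38, whereas the identifiers in the table are mouse Ensembl genes. The values were whole numbers, and the step from transcripts to genes is not stated in the labels. GENCODE M21 (GRCm38) matched 29936 of 30323 identifiers, and the 387 unmatched held 0.346% of counts. Counts were scaled to CPM (pseudocount 1 CPM on the log2 scale) without a cell filter or doublet caller. Thinning left out 8 shallower cells. The fold rule was tested on simulated data. The 8 members, the lists (10 enzymes, 8 other binding genes, 10 coregulators, 12 partners, 16 responsive genes) and both state rules were chosen with earlier results of these data known. Named genes are the members, pathway genes of these lists, and the 3 most similar genes for each member. Some genes of the lists are not reported here. Alternatives changed the detection count, scaling, length, state cuts, filter and fold. Software was R 4.3.3 with scran 1.30.0, and Python 3.11.15 with pandas 2.3.3, numpy 2.4.6, matplotlib 3.10.9 and SciPy 1.17.1.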

Additional observations from a re-analysis of the deposited data

How the results depend on the processing

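Of the 6 members tested by Lhx9 state, 2 were past 2-fold, against 1 on the mean of log2(CPM + 1), 1 after thinning and 1 among cells below 100 CPM of Actc1. Over 8 alternatives the log2 ratio of Crabp1 ran from -2.69 to -0.57 and that of Crabp2 from -1.54 to -0.96. By Actc1 state, Crabp1 ran from -4.12 to -1.20 over 7 alternatives and Crabp2 from 0.58 to 1.59, past 2-fold in 4. The count of enzymes with rho of 0.3 or more in size with Rarb went from 0 to 1 (Rdh11) in cells below 500 CPM of Actc1. The share of all genes past 2-fold by Lhx9 state was 17.3%, 38.6% without the filter on low counts and 8.02% at 3-fold. By Actc1 state it was 13.9%, 39.2% and 6.49%. The causes were not tested. No called value changed sign under the alternatives run. The Rarb and glycolysis alternatives and the marker sum without Actc1 were added after seeing the data. No paired analysis was possible because the labels give 1 group. Embryos cannot be told apart, and a gene at 1 to 4 counts in a cell was counted as not detected, which bears most on Rarg, Rxra and Rara.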

Other observations

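Coregulator genes were mostly even between Actc1 states, while some genes for other nuclear receptors differed between states. Of 10 coregulator genes, 9 passed the filter, and 0 of them differed by 2-fold or more between Actc1 states. Of all genes that passed, 13.9% did. Of 12 genes for partners or competitors at retinoid response elements, 7 passed. Nr2f1 was at 26.9 ± 50.4 CPM in Lhx9-positive and 97.9 ± 72.5 CPM in Lhx9-negative cells, whereas its relative Nr2f2 was at 81.2 ± 53.7 and 90.5 ± 60.4 CPM. Nr1h3, an oxysterol receptor that pairs with RXR, was higher in Actc1-high cells, at 38.2 ± 45.8 against 10.05 ± 20.3 CPM.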
